A study of Mus musculus with 2 samples.

Results

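The genes described here are the pore-forming and auxiliary subunits of potassium channels, voltage-gated calcium channels and transient receptor potential (TRP) channels in cells of the mouse aorta. The members were the rows of the count table whose symbol starts with Kcn or Cacn, or with Trpc, Trpm or Trpv followed by a digit. 1 row that fits the letters was left out by the rule, which left 90 of 16971 rows. 4 of the 90 encode no channel subunit and were taken in by their symbol. Kcnq1ot1, Kcnd3os and Kcnmb4os2 are RNAs named after a neighbouring channel gene, and Trpc4ap is a protein that associates with a TRP channel.

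Whole aortas of female C57/BL6 wild-type mice aged 12 weeks on chow were dissociated with enzymes for 1 hour at 37 °C after perivascular fat had been dissected away, and single cells were captured in droplets. All cells belong to this 1 group, and the comparison is between the cell populations that the authors named. The table holds 2260 cells in library 1 and 3191 in library 2, with 11104066 and 19484171 UMIs (unique molecular identifiers, each standing for 1 captured RNA molecule). Levels are given below in CPM, the UMIs of a gene per 1000000 UMIs of the population, with library 1 first and library 2 second (n = 2 libraries throughout).

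Potassium channels let potassium leave the cell and hold the membrane at a negative potential, voltage-gated calcium channels open on depolarisation, and TRP channels pass cations in response to stretch, lipids, heat or emptied stores. In arterial smooth muscle calcium entry through the L-type channel drives contraction, while potassium channels activated by calcium or voltage oppose it. Endothelial calcium-activated potassium channels are known to hyperpolarise the endothelium and to relax the muscle beneath it.

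The 10 populations were VSMC (1103 and 1056 cells), Fibro 1 (390 and 757), Fibro 2 (207 and 427), EC 1 (148 and 277), EC 2 (56 and 173), EC 3 (34 and 60), Mono 1 (181 and 262), Mono 2 (40 and 69), Macro (89 and 78) and Neuron (12 and 32). Every smooth muscle, fibroblast and endothelial marker checked had UMIs in its own populations, and the summed smooth muscle markers stood at 30209 to 32935 CPM in VSMC against 451.4 to 3445 elsewhere. The labels of 2 populations went against their markers. In Macro the summed macrophage markers stood at 33.5 and 81.4 CPM, against 11743 and 11049 in Mono 1, whereas T and NK cell markers (1443 and 1586) and B cell markers (1502 and 842.5) were present. In Neuron the summed neuron markers stood at 0 and 21.4 CPM, and those of Schwann cells, the glia of peripheral nerves, at 7456 and 12400. Neuron also carried pericyte markers at 738.7 and 2542 (VSMC 1347 and 1609), mesothelial markers at 554.0 and 42.7, and adipocyte markers at 0 and 416.6. The part of such cells or RNA in its channel levels was not tested. Both names are kept below as the authors' names only. 12 barcodes occurred in both libraries, and 58 and 26 cells were called doublets and kept.

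Members were sparse. Together they took 24163 UMIs, 0.079% of all UMIs, and single members had 3 to 3596 UMIs with a median of 57. Only 47 members reached 50 UMIs, and 31 had fewer than 15. Summed member levels were highest in Neuron (2355 and 3322), where Kcna1 alone gave 1293 and 1965. They stood at 978 and 1021 in VSMC and between 421.1 and 775.4 in the other 8 populations. These sums include the 4 rows that encode no channel subunit. Those rows gave 116.3 and 117.5 in VSMC, 301.5 and 284.4 in Fibro 2, and 266.4 and 206.5 in EC 2. Of the 47 members with at least 50 UMIs, 18 had their highest mean level in VSMC, 7 in Neuron, 5 in Fibro 1, 4 in EC 1, 3 each in Fibro 2 and EC 2, 2 each in EC 3, Mono 1 and Mono 2, and 1 in Macro. That cut is on UMIs over all cells, and VSMC held 13552873 of 30588237, so members high in VSMC passed it more easily. No share over all genes stands beside these counts, and nothing is read from them. In Neuron of library 1 a single UMI is worth 23.1 CPM, so the counts behind its levels are small.

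**Figure D1:**
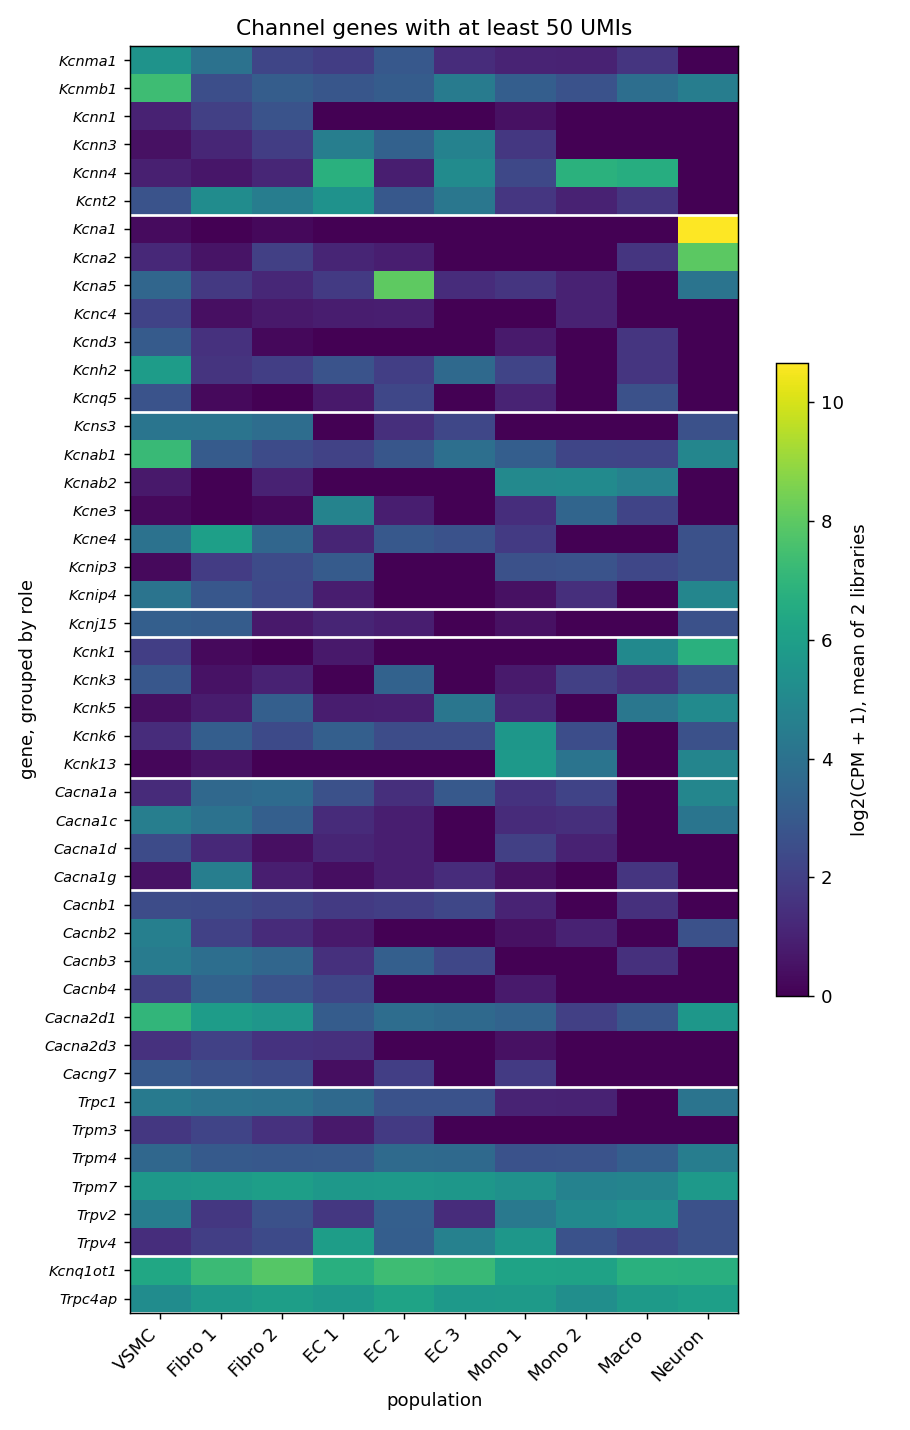
Mean level of 45 channel genes (rows, grouped by role) in the 10 populations (columns), coloured on a log scale as CPM averaged over 2 libraries. Kcna1 and Kcna2 stand out in Neuron. The genes drawn have at least 50 UMIs over all cells, a cut that members high in VSMC pass more easily.

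On the log scale each class of populations was set against the average of the remaining classes by edgeR's quasi-likelihood test with Benjamini-Hochberg adjustment over all 10488 genes tested. The populations are the authors' and were presumably formed from these same counts, so an adjusted p does not show that populations differ. It sets a difference against the spread between the 2 libraries that remains after a term for library, estimated over all populations together. Only 32 members passed the filter on low counts, which works on levels in CPM and not on UMIs alone. Kcna6 was tested with 41 UMIs in all, while Kcnip4 with 276 was not. A sparse member could enter only through a population where it was high, so the shares of the 32 that were called describe them and support nothing. 31 of the 32 were called in at least 1 of 9 comparisons, and Trpm4 in none, a count without a share over all genes beside it. The 58 members not tested had at most 276 UMIs.

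In smooth muscle 16 of the 32 members were higher and 4 lower, where 28.7% of all genes tested were higher and 20.6% lower (49.3% called). DESeq2 called 14 higher and 9 lower, and its share over all genes is not given here. The endothelial class had 3 members higher and 5 lower (all genes 17.4% and 15.7%, 33.1% in either direction), the fibroblast class 12 and 5 (27.6% and 19.3%, 46.9%), the immune class 3 and 13 (22.5% and 27.7%, 50.2%), and Neuron 6 higher and 0 lower (5.17% and 3.72%, 8.89%). For Neuron edgeR's test gave 0 members lower at an unadjusted p under 0.05 too, and DESeq2 0. Median log2 differences of the tested members against those of all genes were 1.53 against 0.02 in smooth muscle, -0.53 against -0.04 in endothelium, 0.63 against 0.00 in fibroblasts, -1.83 against -0.11 in immune cells and 0.45 against -0.26 in Neuron.

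The test could give no usable error for 48 of the 288 member differences, in each of which at least 1 population was at 0 in both libraries, and 0 of these were called. As a further fit, chosen after seeing this, each class was summed to 1 count per library before testing, which tested 46 members. It called 23 members higher and 12 lower in smooth muscle (all genes 24.3% and 28.1%, 52.4% in either direction), 10 and 13 in endothelium (19.0% and 17.8%, 36.9%), 18 and 11 in fibroblasts (23.9% and 23.9%, 47.8%), and 12 and 17 in immune cells (30.5% and 23.4%, 53.9%). All 20 smooth muscle calls and all 8 endothelial calls of the first fit were called again with the same sign, as were 15 of 17 in fibroblasts and 15 of 16 in immune cells. Class sums follow the most numerous population of a class, and values from this fit are named as such below.

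Calcium-activated potassium channels of the large-conductance type were at their highest in VSMC. Kcnmb1, the subunit that raises the calcium sensitivity of that channel in smooth muscle, stood at 148 and 174 CPM in VSMC. The next highest population by mean, Neuron, had 23.1 and 21.4, and Fibro 1 had 6.24 and 3.66. In EC 3 the libraries differed, at 26.2% and 1.77% of the VSMC level. The difference between smooth muscle and the other classes was 4.51 ± 0.15 on the log2 scale (SE, adjusted p = 3.38e-22). A Kcnmb1 UMI was found in 55.6% of VSMC (median 6025 UMIs per cell) and in 3.16% of Mono 1 cells (median 4261). The latter is given as the share in an immune population. Whether free RNA or doublets gave the Mono 1 share was not tested. With every cell thinned to 1300 UMIs these shares were 18.9% and 1.13%. Kcnma1, the pore of the same channel, stood at 43.8 and 44.2 in VSMC, 14.0 and 16.1 in Fibro 1, and 4.80 and 2.59 in Fibro 2. It was higher in smooth muscle than in the other classes by 3.85 ± 0.22 (adjusted p = 2.31e-15) and higher in Fibro 1 than in Fibro 2 by 2.25 ± 0.41 (adjusted p = 1.26e-04). In Fibro 1 its level was 32.0% and 36.5% of that in VSMC, whereas the summed smooth muscle markers were at 5.20% and 3.25% and Kcnmb1 at 4.20% and 2.1%. Kcnmb4, another subunit of this channel, had 12 UMIs in all, and Kcnmb2 was not analysed here.

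The sequence before the start of Kcnmb1 is shown because the gene was concentrated in smooth muscle. It is the 250 bases upstream of the start on the plus strand in RefSeq's mouse assembly GRCm38.p6, chr11:33962763-33963012.
Kcnmb1 promoter: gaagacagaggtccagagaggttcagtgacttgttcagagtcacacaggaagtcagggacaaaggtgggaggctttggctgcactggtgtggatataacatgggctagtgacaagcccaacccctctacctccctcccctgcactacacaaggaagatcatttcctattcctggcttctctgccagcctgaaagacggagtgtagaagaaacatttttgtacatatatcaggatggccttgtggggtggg
The CArG box, the motif bound by serum response factor before many contractile genes, reads as its own reverse complement, so 1 search covers both strands. In windows from 250 bases before to 50 bases after a start it occurred in 535 of 32851 mouse promoters (1.63%). Promoters of 1 chromosome were left out of this search. The box occurred in 1 of the 99 member promoters searched, which belonged to 69 members. Of these members 14 were called higher in smooth muscle, and it occurred in 0 of their 23 promoters. The 1 match lay 112 bases before a start of Trpc6, on the plus strand at chr9:8544010-8544039, with the box in capitals.
Trpc6 site: cctttcgatcCCTTTAAAGGtggggatcgt
Trpc6 itself, a lipid-operated channel gene, had 3 UMIs among all cells. A match is a run of letters only, and longer promoter stretches were not searched.

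The calcium-activated channels of small and intermediate conductance had their highest mean levels outside VSMC, in populations that differed from gene to gene. Kcnn4, the intermediate-conductance channel, stood at 62.6 and 153 in EC 1, 15.5 and 52.4 in EC 3, and 0 and 1.68 in EC 2, where 1 UMI was found among 229 cells. The pooled ratio of EC 1 to EC 2 was 97.1, with a 95% exact counting interval from 17.3 to 3849 (adjusted p = 2.86e-09). Kcnn4 was also high in Mono 2 (126 and 98.7) and Macro (66.9 and 131), low in Mono 1 (1.43 and 6.40), and 0.671 and 1.19 in VSMC. A Kcnn4 UMI was present in 39.8% of EC 1 cells (median 4010 UMIs), 39.4% of Mono 2 cells (median 6950), 0.437% of EC 2 cells (median 2658) and 0.602% of VSMC, and after thinning in 18.1%, 14.7%, 0.437% and 0.0463%. It was higher in the immune class by 4.03 ± 0.45 (adjusted p = 6.36e-09) and lower in smooth muscle by 3.04 ± 0.66 (log2 -3.04, adjusted p = 2.80e-04). The endothelial class as a whole was not called (adjusted p = 0.0812) but was called with class sums (4.34 ± 0.22, adjusted p = 1.33e-20). Kcnn3, a small-conductance channel, stood at 26.4 and 18.7 in EC 1, 38.8 and 12.3 in EC 3, 17.8 and 0 in EC 2, and at or below 3.84 in each library of the other populations. Its mean endothelial level was 17.9 times that of the other classes (adjusted p = 3.95e-04), and library 1 was the higher in all 3 endothelial populations. Kcnn1, another small-conductance channel, had 57 UMIs and missed the filter. It stood at 4.80 and 6.29 in Fibro 2, 3.12 and 3.01 in Fibro 1 and 0.839 and 1.19 in VSMC, with 0 UMIs in EC 1, EC 2 and EC 3. Kcnt2, a sodium-activated channel, stood at 39.6 and 44.8 in EC 1, 32.7 and 38.3 in Fibro 1, and 11.8 and 1.68 in EC 2. EC 1 exceeded EC 2 by a pooled ratio of 11 (95% counting interval 3.66 to 54.5, adjusted p = 5.52e-05), and the fibroblast class was higher by 2.50 ± 0.23 (adjusted p = 8.77e-11). The endothelial class as a whole was not called for Kcnt2 in the first fit (0.85 ± 0.48, adjusted p = 0.193) and was called with class sums (1.96 ± 0.26, adjusted p = 2.17e-08).

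**Figure D2:**
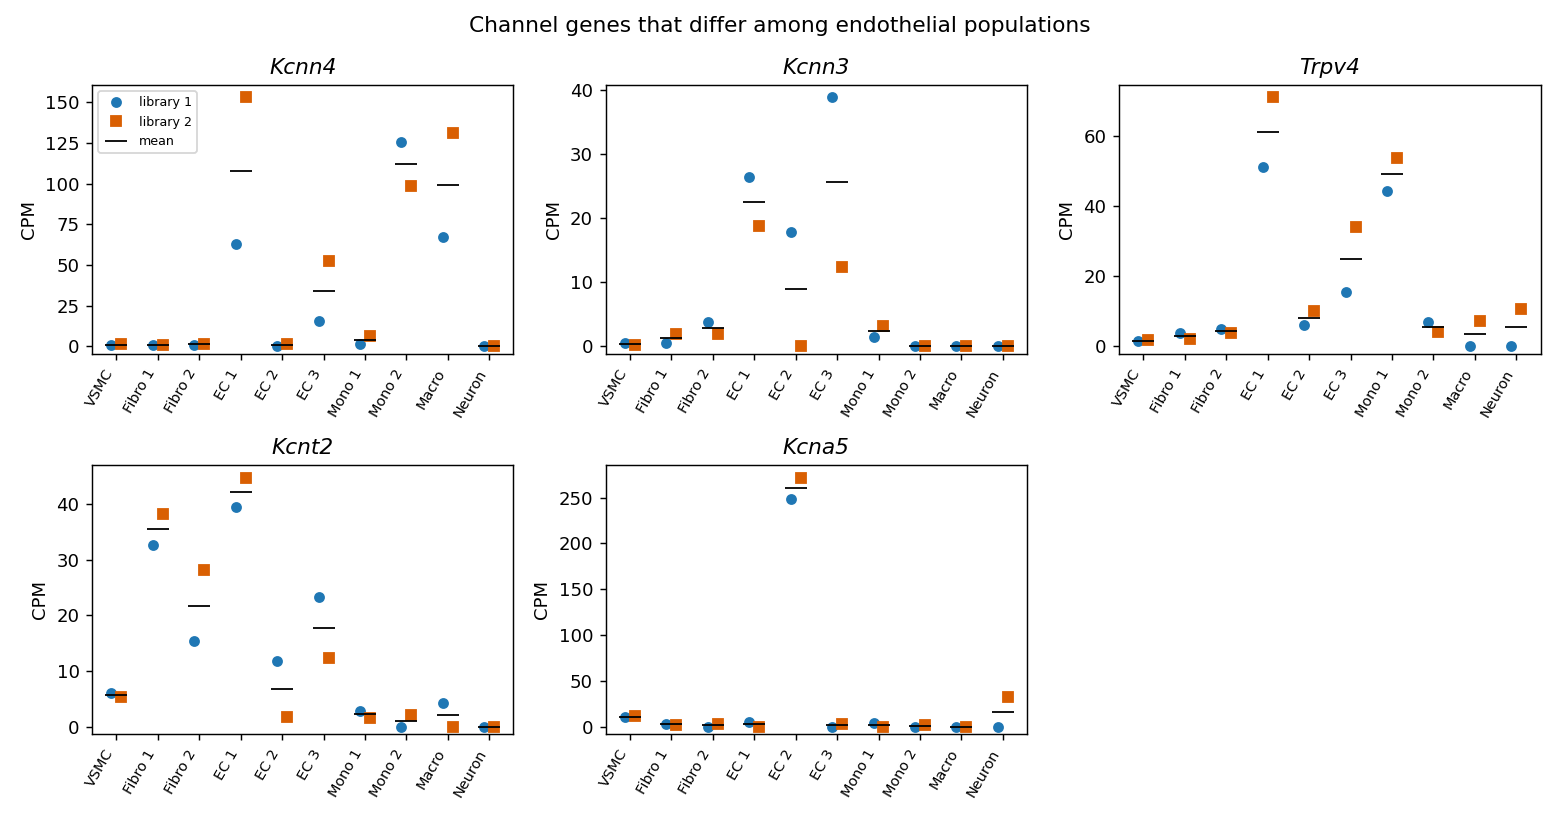
Levels of 5 channel genes in CPM (vertical axes, each with its own range) in the 10 populations, with circles for library 1, squares for library 2 and a line at the mean. Kcnn4 is at 62.6 and 153 in EC 1 and at 0 and 1.68 in EC 2, while Kcna5 is at 248.6 and 271.96 in EC 2 and below 5 in EC 1.

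The voltage-gated potassium channel pores divided among the populations. Kcnh2, the pore of the delayed rectifier best known from the heart, stood at 60.4 and 55.3 in VSMC, 6.59 and 4.68 in EC 1 and 2.60 and 1.51 in Fibro 1. Its mean VSMC level was 15.6 times that of the other classes (adjusted p = 5.16e-16), and 27.8% of VSMC had a UMI, or 7.87% after thinning.

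Kcna5, a delayed rectifier of the Shaker family, was concentrated in EC 2. It stood at 248.6 and 271.96 there, against 4.95 and 0 in EC 1 and 10.2 and 11.1 in VSMC. The 204 UMIs lay in 121 of 229 cells (52.8%, and 30.1% after thinning), against 3 UMIs in EC 1 (0.471% of cells). EC 2 exceeded EC 1 by a pooled ratio of 187 (95% counting interval 63.1 to 914, adjusted p = 2.06e-13). EC 2 also carried more pericyte marker UMIs than EC 1, 947.1 and 770.6 CPM against 87.4 and 64.2. The 15 EC 2 cells with at least 10 pericyte marker UMIs held 15 of its 204 Kcna5 UMIs, and the log2 difference between EC 1 and EC 2 was -7.32 with them and -7.45 without them. Kcna5 was called higher in smooth muscle by the log-scale contrast (adjusted p = 7.49e-05) although its mean VSMC level was 0.351 times that of the other classes, because the contrast averages logs and EC 2 is 1 of 3 endothelial populations.

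Kcna1, Kcna2 and Kcna6, Shaker-family pores known from axons and their glia, were found in the population named Neuron. Kcna1 stood at 1293 and 1965 there, from 240 UMIs in 32 of 44 cells with at most 33 in 1 cell. Neuron exceeded the 4 classes pooled by a pooled ratio of 13342 (95% counting interval 5144 to 49365, adjusted p = 3.12e-20). A Kcna1 UMI was present in 72.7% of Neuron cells (median 2468 UMIs) and 0.139% of VSMC, and after thinning in 70.5% and 0%. Kcna2 stood at 277 and 224 in Neuron (adjusted p = 4.03e-11) and at 2.88 and 3.33 in Fibro 2, where it exceeded Fibro 1 (0.520 and 0.430, adjusted p = 0.0487). Kcna6 stood at 162 and 150 in Neuron (adjusted p = 3.64e-08), with 21 of its 41 UMIs there. In the same cells Kcnj10, the inward rectifier of glia, had 4 UMIs, against 1 elsewhere in the 4 classes. Summed smooth muscle markers stood at 3209 and 1933 CPM in Neuron, and the part of such RNA in its low-count members was not tested.

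Most voltage-gated pores were sparser. Kcnh1 had 11.5 and 10.7 in EC 1 (23 UMIs) and none in EC 2. Kcnd3, the pore of a transient outward current, had 6.21 and 8.43 in VSMC, and Kcnq5 3.52 and 7.64. Both missed the filter on low counts. Without it both were called higher in smooth muscle (adjusted p = 2.00e-13 and 2.00e-09). That fit called 26.1% of 16954 genes higher, 10.8% lower and 36.9% in either direction. Kcnq1, a cardiac and epithelial pore, was at 9.89 and 4.68 in EC 1 and 10.2 and 8.06 in Mono 2 and at or below 0.671 in VSMC. The sources used here do not give whether counting used strand, so reads of Kcnq1 and of Kcnq1ot1, of Kcnd3 and of Kcnd3os, and of Kcnmb4 and of Kcnmb4os2 cannot be told apart.

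**Figure D3:**
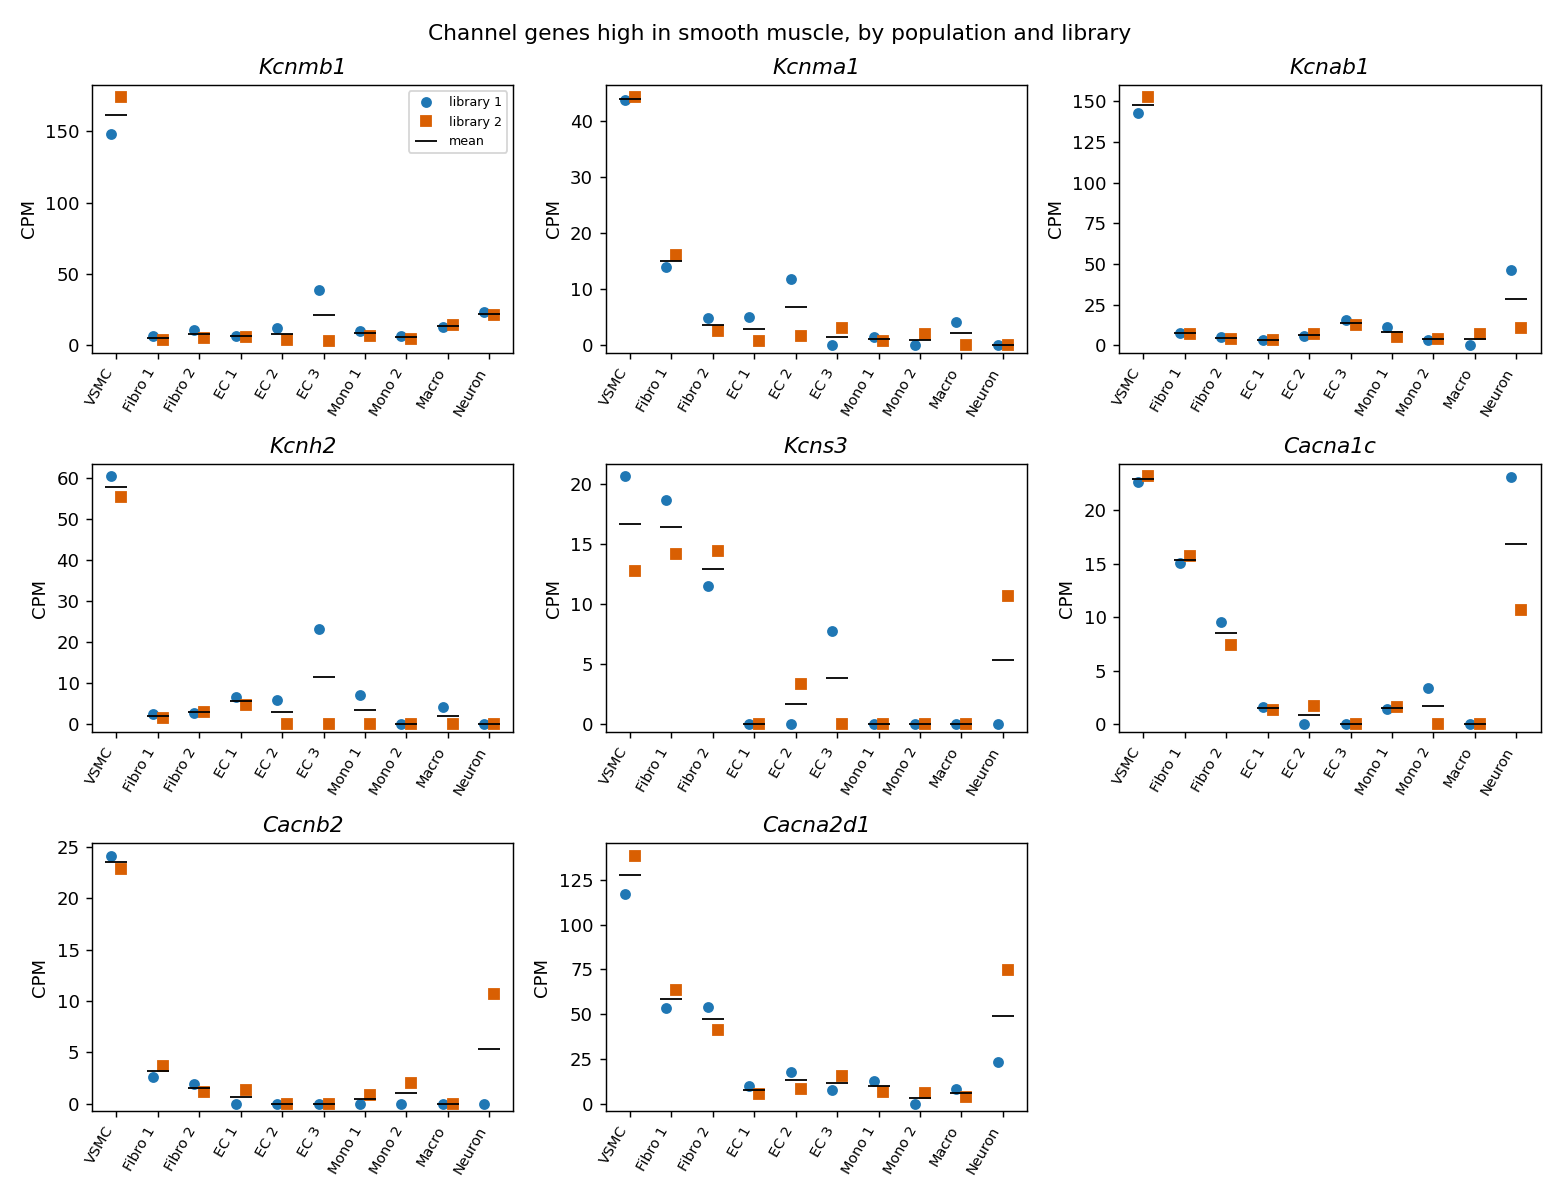
Levels of channel genes called higher in smooth muscle, in CPM (vertical axes, each with its own range) in the 10 populations, with circles for library 1, squares for library 2 and a line at the mean. Kcnmb1 (148 and 174) and Kcnab1 (143 and 152) are highest in VSMC. In any other population they reach at most 26.2% and 32.3% of the VSMC level of the same library. Cacna2d1, Cacna1c and Kcns3 are also present in Fibro 1 and Fibro 2.

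Among the modifiers of voltage-gated potassium channels, 2 related beta subunits fell to different classes. Kcnab1 stood at 143 and 152 in VSMC and at 7.80 and 6.89 in Fibro 1, and was higher in smooth muscle by 4.69 ± 0.14 (adjusted p = 3.48e-23). A Kcnab1 UMI was found in 53.0% of VSMC, or 16.2% after thinning. Kcnab2 stood at 25.7 and 36.8 in Mono 1, 37.4 and 30.2 in Mono 2 and 25.1 and 24.8 in Macro, and at or below 1.11 in each library of the other populations. Its mean immune level was 76.1 times that of the other classes (adjusted p = 6.52e-12). Kcns3, a silent subunit that forms channels only together with other pores, was shared by muscle and fibroblasts. It stood at 20.6 and 12.8 in VSMC, 18.7 and 14.2 in Fibro 1 and 11.5 and 14.4 in Fibro 2, so that the 3 populations overlapped, and it was called higher in both smooth muscle (adjusted p = 5.69e-08) and fibroblasts (adjusted p = 1.95e-07).

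Kcne4, a single-pass subunit that inhibits several voltage-gated channels, was highest in Fibro 1, and its level differed between libraries. It stood at 98.2 and 31.0 in Fibro 1, 15.4 and 5.92 in Fibro 2 and 18.0 and 12.9 in VSMC. Within each library Fibro 1 was the highest of these 3, and Fibro 1 exceeded Fibro 2 by 2.56 ± 0.28 (adjusted p = 2.64e-08). The fibroblast class was called higher (mean level 5.45 times that of the other classes, adjusted p = 7.48e-08). Smooth muscle, with 205 of the 582 Kcne4 UMIs, was also called higher on the log scale (adjusted p = 1.37e-05) at a mean level 1.08 times that of the other classes. A Kcne4 UMI was present in 18.0% of Fibro 1 cells (median 5513 UMIs), or 6.36% after thinning. Kcne3, a related subunit, was found in EC 1 at 36.3 and 16.0 (46 UMIs) and in EC 2 with 1 UMI. Kcnip4, a calcium-binding subunit of transient outward channels, stood at 16.6 and 15.5 in VSMC, 7.28 and 5.59 in Fibro 1 and 0 in EC 2 and EC 3. It missed the filter and was called higher in smooth muscle without it (adjusted p = 2.37e-24).

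Inward rectifiers, which set the resting potential, had few UMIs, and 0 of the 5 passed the filter. Kcnj15 stood at 8.90 and 8.03 in VSMC, 7.28 and 7.96 in Fibro 1 and 0.960 and 0.370 in Fibro 2, and Kcnj12 at 3.36 and 2.63 in VSMC. Kcnj2 had 14 UMIs in all and 0 in VSMC, and a count of 0 allows up to 3 UMIs among these 2159 cells. Kcnj11 was not analysed here.

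The tandem-pore-domain potassium channels, which carry background current, had their highest levels in different populations. Kcnk13 stood at 44.3 and 59.2 in Mono 1, 20.4 and 12.1 in Mono 2 and 0 in Macro, and at or below 0.520 in each library of the smooth muscle, fibroblast and endothelial populations. Neuron was also called higher than the 4 classes for Kcnk13 (adjusted p = 0.00236), with 105 of the gene's 126 UMIs in Mono 1. Mono 1 was at least 9.37-fold higher than Macro, taking 3 counts over the Macro cells as the floor (adjusted p = 2.91e-05). Kcnk6, with 101 of its 219 UMIs in Mono 1, stood at 40.0 and 58.4 there and 0 in Macro, at least 9.01-fold higher (adjusted p = 6.58e-06), with 8.24 and 8.69 in EC 1 and 8.32 and 7.96 in Fibro 1. UMIs of Kcnk13 and Kcnk6 were present in 21.0% and 19.4% of Mono 1 cells, or 6.77% and 7.67% after thinning. The immune class as a whole was not called for either gene in the first fit, and both were called with class sums (Kcnk13 8.29 ± 0.44, adjusted p = 4.01e-20, and Kcnk6 3.18 ± 0.26, adjusted p = 2.22e-14).

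Kcnk1 and Kcnk5 showed the opposite order between Mono 1 and Macro. Kcnk1 stood at 25.1 and 38.9 in Macro and 0 in Mono 1, and Macro was at least 21.2-fold higher (adjusted p = 2.35e-04). All 17 of its Macro UMIs lay in the 84 cells with more than 1 T or NK cell marker UMI. The 49 cells with more than 1 B cell marker UMI held 0 (1 cell was in both groups). Kcnk1 was also found in Neuron at 23.1 and 192, where library 1 rests on 1 UMI. In VSMC it stood at 3.86 and 1.98, from 38 of its 78 UMIs, and the log-scale contrast called smooth muscle higher (adjusted p = 0.00251) although the mean VSMC level was 0.795 times that of the other classes. Kcnk5 stood at 20.9 and 14.2 in Macro, 9.60 and 7.40 in Fibro 2 and 1.56 and 0 in Fibro 1. Fibro 2 exceeded Fibro 1 by a pooled ratio of 17.5 (95% counting interval 5.46 to 89.8, adjusted p = 0.00107), while Neuron (46.2 and 21.4) held 4 UMIs. Kcnk3, an acid-sensitive channel of smooth muscle, stood at 6.38 and 6.45 in VSMC and at 11.8 and 6.72 in EC 2 (6 UMIs).

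**Figure D4:**
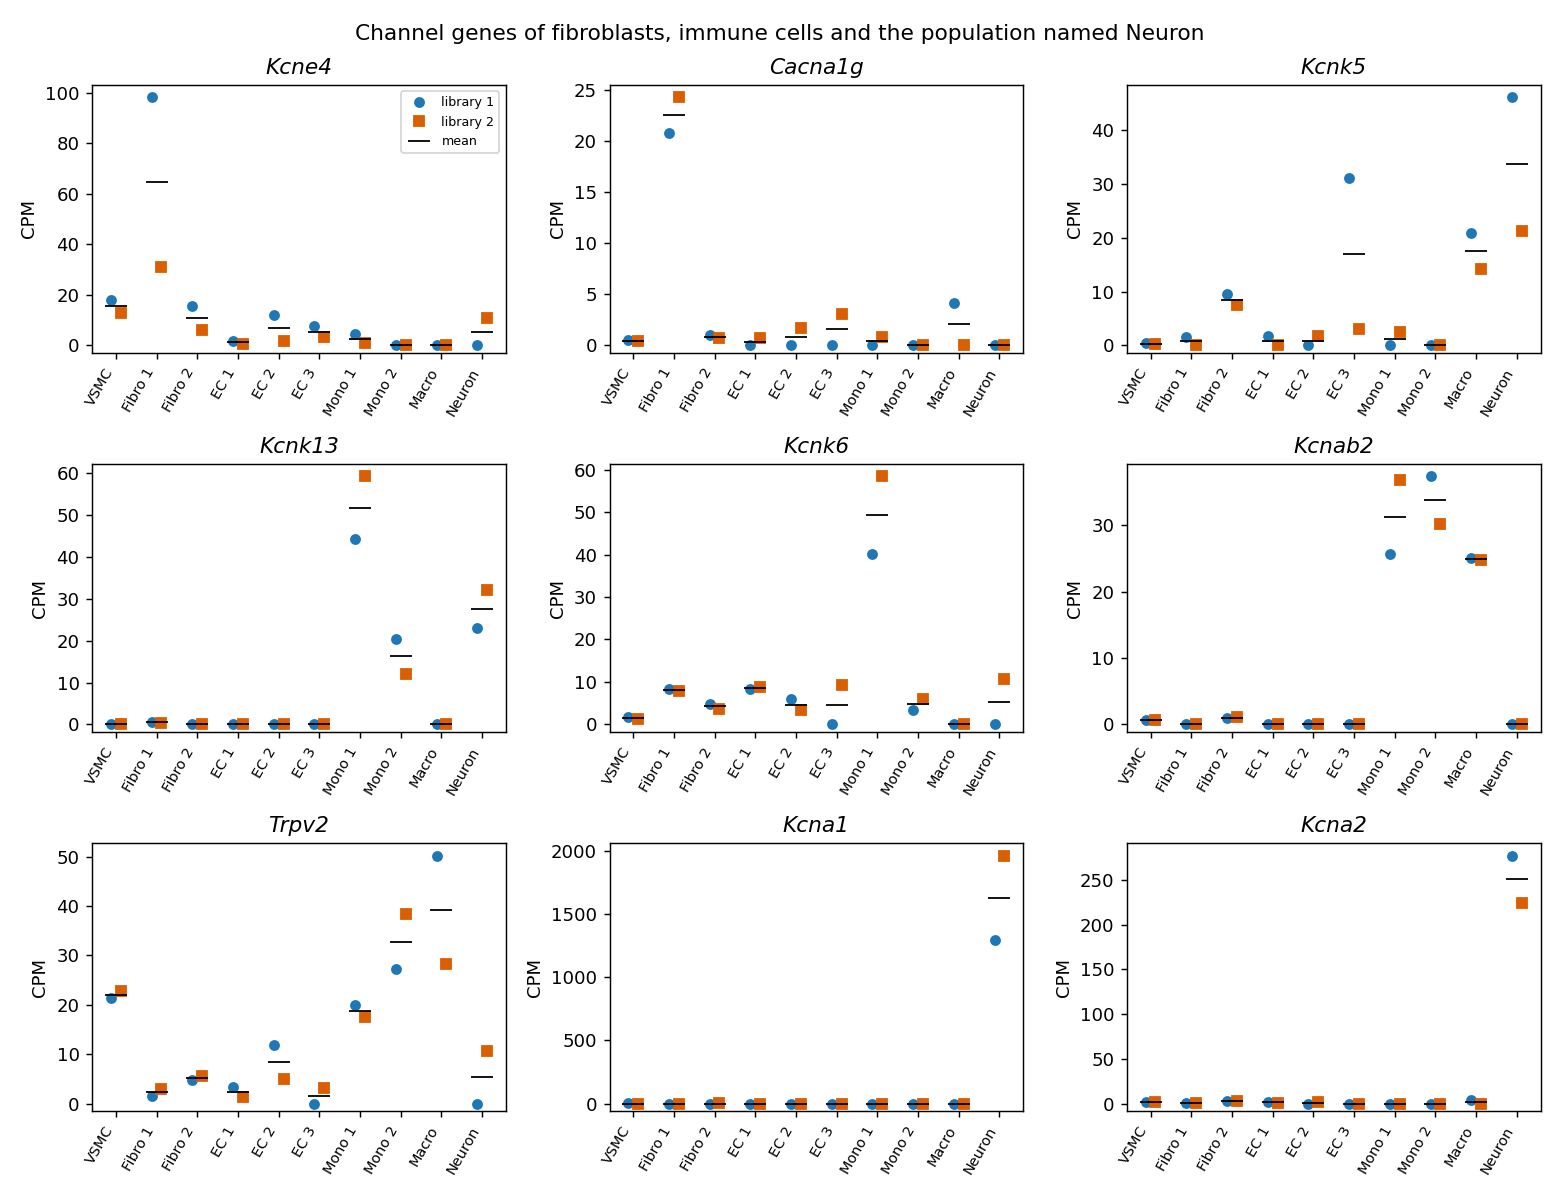
Levels of 9 channel genes in CPM (vertical axes, each with its own range) in the 10 populations, with circles for library 1, squares for library 2 and a line at the mean. Kcnk13 and Kcnk6 are high in Mono 1 and at 0 in Macro, Cacna1g is at 20.8 and 24.3 in Fibro 1, and Kcna1 is at 1293 and 1965 in Neuron.

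Of the calcium channel pores, 2 passed the filter and were tested. Cacna1c, the L-type pore through which arterial muscle takes up calcium, stood at 22.7 and 23.2 in VSMC, 15.1 and 15.7 in Fibro 1 and 9.60 and 7.40 in Fibro 2. Its mean VSMC level was 4.98 times that of the other classes (adjusted p = 6.33e-11), and Fibro 1 exceeded Fibro 2 by 0.95 ± 0.33 (adjusted p = 0.0461). In Fibro 1 the level was 66.5% and 67.8% of that in VSMC, far above the 5.20% and 3.25% of the smooth muscle markers there. Cacna1g, a T-type pore that opens at low voltage, stood at 20.8 and 24.3 in Fibro 1 and 0.960 and 0.740 in Fibro 2, with 153 UMIs against 3. The pooled ratio was 29.1 (95% counting interval 9.76 to 143, adjusted p = 2.30e-07). These UMIs lay in 135 of 1147 Fibro 1 cells, 11.8%, against 0.315% of Fibro 2 cells (median 5402.5 UMIs), and in 2.35% of Fibro 1 after thinning. Cacna1d, a second L-type pore, stood at 4.03 and 4.87 in VSMC, and Cacna1h, a T-type pore, at 1.01 and 1.05 from 14 UMIs.

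Of the 10 auxiliary calcium channel subunits among the members, 3 passed the filter and were tested. Smooth muscle was called higher for 3 of them and fibroblasts for 2, where 28.7% and 27.6% of all genes were, a count that describes these 3 and supports nothing about the 10. Cacna2d1, which carries the channel to the membrane, stood at 117 and 139 in VSMC, 53.5 and 63.3 in Fibro 1 and 53.8 and 41.0 in Fibro 2 (smooth muscle 3.15 ± 0.15, adjusted p = 3.54e-18). Cacnb2, a cytoplasmic subunit, stood at 24.2 and 22.9 in VSMC and had a mean level 23.4 times that of the other classes (adjusted p = 1.40e-12). Cacnb3 was less restricted, at 20.3 and 21.1 in VSMC and 13.5 and 13.3 in Fibro 1 (smooth muscle adjusted p = 2.08e-09, fibroblasts adjusted p = 3.50e-05). The level of Cacna2d1 in Fibro 1 was 45.6% of that in VSMC in each library. Cacng7, a transmembrane subunit gene, had 92 UMIs in VSMC and missed the filter. Without it Cacng7 was called higher in smooth muscle (adjusted p = 5.56e-07) and in fibroblasts (adjusted p = 0.00179). Its level was 61.9% and 90.4% of that in VSMC in Fibro 1, and 63.6% and 65.7% in Fibro 2. Cacna2d2 had 19 UMIs in all.

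**Figure D5:**
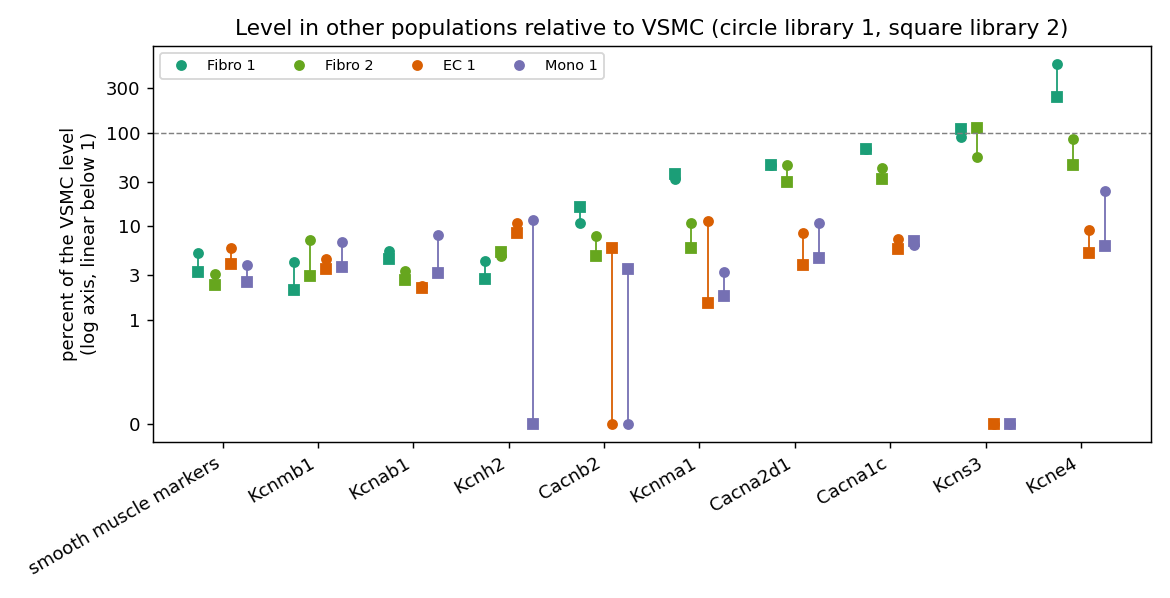
Level of channel genes and of the summed smooth muscle markers in other populations as a percent of the VSMC level in the same library (log axis). Kcnmb1 and Kcnab1 lie near the markers in Fibro 1 (markers 5.20% and 3.25%), while Cacna2d1, Cacna1c and Kcns3 lie well above them.

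TRP channel genes ranged from broad to restricted. Trpm7, a channel with a kinase domain that carries magnesium, was found in every population, from 20.2 to 85.4 CPM, with a UMI in 8.38% to 27.1% of cells of a population. It was higher in fibroblasts by 0.44 ± 0.13 (adjusted p = 0.00506) and lower in immune cells by 0.64 ± 0.21 (log2 -0.64, adjusted p = 0.00947), the latter not called with class sums (adjusted p = 0.082). Trpm4, a calcium-activated cation channel, stood at 11.1 and 10.4 in VSMC and 11.8 and 11.8 in EC 2. Trpc1, a store-operated channel subunit, stood at 20.1 and 20.1 in VSMC, 16.1 and 15.9 in Fibro 1, 13.2 and 10.0 in EC 1, and 0 in Macro. It was called higher in smooth muscle (mean level 2.52 times that of the other classes, adjusted p = 1.18e-08) and in fibroblasts (1.66 times, adjusted p = 5.19e-06).

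The vanilloid TRP channels were split between endothelium, muscle and immune cells. Trpv4, which opens on osmotic and shear stimuli in endothelium, stood at 51.1 and 70.9 in EC 1, 15.5 and 33.9 in EC 3, 5.92 and 10.1 in EC 2, and also at 44.3 and 53.6 in Mono 1. It was higher in endothelium by 2.54 ± 0.37 (adjusted p = 1.40e-06) and in EC 1 over EC 2 by 2.95 ± 0.43 (adjusted p = 3.12e-06). Mono 1 had 98 Trpv4 UMIs and Macro 2, a pooled ratio of 13.1 (95% counting interval 3.53 to 110, adjusted p = 4.11e-05). A Trpv4 UMI was present in 25.4% of EC 1 cells and 19.6% of Mono 1 cells, or 8.71% and 4.97% after thinning. Trpv2 stood at 50.2 and 28.3 in Macro, 27.2 and 38.3 in Mono 2, 20.02 and 17.6 in Mono 1, and 21.3 and 22.8 in VSMC, with 1.56 and 3.01 in Fibro 1. It was higher in the immune class by 2.37 ± 0.26 (adjusted p = 4.47e-09) and in smooth muscle by 1.65 ± 0.22 (adjusted p = 1.45e-07). In Macro 17 of its 20 UMIs lay in cells with more than 1 T or NK cell marker UMI. Cells with more than 1 B cell marker UMI held 3, and cells of neither group held 1. The 1 cell in both groups is counted in each. Trpm2, gated by ADP-ribose, was found at 11.4 and 8.00 in Mono 1 and 13.6 and 14.1 in Mono 2, and with 0 UMIs in VSMC, EC 1 and Macro.

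Of the rows that encode no channel, Kcnd3os (8 UMIs) and Kcnmb4os2 (4) were too sparse to describe, and Kcnq1ot1 and Trpc4ap were found in every population. Kcnq1ot1, an imprinted antisense RNA and the most abundant row with 3596 UMIs, stood at 238 and 223 in Fibro 2, 159 and 151 in Fibro 1 and 80.9 and 79.8 in VSMC. It was lower in smooth muscle by 0.65 ± 0.10 (log2 -0.65, adjusted p = 1.20e-06) and higher in fibroblasts by 1.00 ± 0.08 (adjusted p = 2.05e-12). Trpc4ap stood at 34.9 and 37.0 in VSMC and at 23.1 to 107 CPM across the other populations, and was lower in smooth muscle by 0.63 ± 0.12 (log2 -0.63, adjusted p = 3.72e-05).

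Inside the classes, 4 comparisons were made. EC 1 against EC 2 gave 3 higher and 2 lower (11.1% and 9.23% of all genes, 20.3% in either direction), and EC 3 against the other endothelial populations gave 1 higher and 0 lower (5.55% and 2.93%, 8.48%). For EC 3 edgeR's test gave 2 members lower at an unadjusted p under 0.05, and DESeq2 called 0 lower. Fibro 1 against Fibro 2 gave 5 higher and 3 lower (8.3% and 7.2%, 15.5%), and Mono 1 against Macro gave 3 higher and 3 lower (14.1% and 9.94%, 24.0%).

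Genes of calcium stores and other ion channels, taken from 2 lists outside the rule, were tested in the same fit. Of 20 calcium-handling genes, 16 were tested, and smooth muscle had 5 higher with 6 lower, followed by 7 and 3 in endothelium, 4 and 4 in fibroblasts and 4 and 4 in immune cells. Over all genes the shares higher and lower were 28.7% and 20.6% in smooth muscle, 17.4% and 15.7% in endothelium, 27.6% and 19.3% in fibroblasts and 22.5% and 27.7% in immune cells, and nothing is read from the counts of either list. Ryr2, a calcium release channel of the sarcoplasmic reticulum, stood at 20.5 and 32.4 in VSMC against 1.86 and 2.45 in the mean of the other classes (adjusted p = 1.17e-11), and Atp2a2, the calcium pump of that store, at 265.2 and 287.4 (2.09 ± 0.10, adjusted p = 2.84e-18). Itpr2 and Itpr3, release channels opened by inositol trisphosphate, were lower in smooth muscle (log2 -3.37 and -2.44) and higher in endothelium (2.41 and 2.72). Of the 18 other channel genes and partners, 13 were tested, and smooth muscle had 7 higher with 2 lower, followed by 6 and 1 in endothelium, 6 and 4 in fibroblasts and 0 and 9 in immune cells. For the immune class edgeR's test gave 0 of the 13 higher at an unadjusted p under 0.05 and DESeq2 1 (0 after adjustment), and class sums called 1. Ano1, a calcium-activated chloride channel, stood at 23.2 and 29.2 in VSMC. Scn7a, a sodium-sensing channel, was higher in fibroblasts by 5.61 ± 0.17 (adjusted p = 1.09e-22), and Abcc9, the regulatory subunit of ATP-sensitive potassium channels, by 3.01 ± 0.12 (adjusted p = 3.74e-20). Neuron was also called higher than the 4 classes for Scn7a (6.46, adjusted p = 1.65e-17) and for Abcc9 (1.36, adjusted p = 0.0304). Abcc9 was higher in smooth muscle too (1.67, adjusted p = 1.54e-11) and lower in endothelium (log2 -2.88, adjusted p = 6.44e-10).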

How the data were processed

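The authors deposited counts of UMIs per gene and cell and a name of 1 of 10 populations per cell. Per the submitters' processing notes Cell Ranger 2.1 was used. The genome build, the annotation and the use of strand in counting are not given in the sources used here. Cells were assigned to a library by the number that ends their barcode, and which aorta each library is was not stated. The labels call the libraries dissociated aortas, and p-values use only the spread between these 2 samples that remains after the library term. The deposited counts were added up per library and population where it held 10 cells or more. After filterByExpr and TMM scaling, edgeR 4.0.16 in R 4.3.3 fitted its quasi-likelihood model to population and library (common dispersion 0.013, residual degrees of freedom 9). Differences are log2 with a standard error from the test statistic, and calls use a Benjamini-Hochberg adjusted p of 0.05 over the 10488 genes tested. The fit was tested on simulated data with known changes.

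Where a population was at 0, ratios of mean levels are given in place of the fitted value, with 1 to 3 UMIs a pooled ratio with a 95% exact interval, and with 0 UMIs a bound against 3 counts over the population. These intervals cover counting error only. Median UMIs per cell were 4160.5 and 5636 in libraries 1 and 2. Doublets were called with Scrublet in scanpy 1.11.5 and kept. In bulk sums fewer expressing cells and less RNA per cell cannot be told apart. Promoter sequences come from RefSeq.

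The members and lists were chosen with earlier results of these data known. Named were, in each comparison, up to 6 called members with the largest difference in each direction among those with at least 50 UMIs and the same sign in each library, 39 fixed members (3 of them not analysed here) and up to 4 called genes of each of the 2 lists outside the rule. The values of some members are not reported here, although counts over the members include them. Chosen after their values were seen were Kcna6, Kcnd3, Kcnh1, Kcnn1, Kcne3, Kcnip4, Kcnj10, Kcnj15 and Trpm2. Alternatives tried were DESeq2 1.42.0, RLE scaling, genes of low count kept, the library term dropped, doublets left out, cells thinned to 1300 UMIs, at least 25 cells, immune cells without Macro and each library alone. Chosen after seeing the data were class sums and leaving out endothelial cells with at least 10 pericyte marker UMIs.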

Additional observations from a re-analysis of the deposited data

How the results depend on the processing

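Thinning every cell to 1300 UMIs left 15 members to test and called 8 in smooth muscle (20 in the analysis above), 2 in endothelium (8), 3 in fibroblasts (17), 4 in immune cells (16), 3 in Neuron (6), 3 between EC 1 and EC 2 (5), 0 for EC 3 (1), 1 between the fibroblast populations (8) and 1 between Mono 1 and Macro (6). For EC 3 the thinned counts gave 2 members higher and 1 lower at an unadjusted p under 0.05 with edgeR, and DESeq2 on the full counts called 2. Without the filter on low counts, 34 were called in smooth muscle (36.9% of all genes), 30 in fibroblasts and 10 between EC 1 and EC 2. Class sums called 35, 23, 29 and 29 in smooth muscle, endothelium, fibroblasts and immune cells. Without the library term, the replicate block of the fit, 5 were called between the fibroblast populations. Apart from class sums and smooth muscle without the filter, no share over all genes is given for these settings. Their counts describe the members tested, and nothing is read from them. At the full depth 58 of 90 members missed the filter and were not tested.

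For 83 named differences 679 alternative values were computed, of which 631 kept their side of the threshold, 48 lost their call and 0 changed sign. Of the 48, 22 came from thinning, 8 from DESeq2 and 5 from leaving out the replicate block. Under thinning only 23 of the 83 kept their call, 22 lost it and the rest had no test left. Each library alone has no test. All 166 such values kept their sign. For members named by the size of their difference the naming rule had already required this, so nothing is read from it.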
